A study of Mus musculus with 12 samples.

Results

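Untreated macrophages of the Ptprz1 knockout were compared with untreated wild-type macrophages, 2 libraries a side, over autosomal genes. The cells were grown from mouse bone marrow for 6 days with 10 ng/mL M-CSF, and RNA was sequenced from directional libraries. The 4 libraries belong to a series of 12, in which cells of each genotype were also treated for 24 h with 100 ng/mL LPS and 10 ng/mL IFNγ (LPS+IFNγ) or with 20 ng/mL IL-4. The deposited table lists 55891 gene identifiers, of which 47874 were placed on autosomes, and 12889 of these had enough counts to be tested. The KO group is labelled as a Ptprz1 knockout and the WT group as wild type, with sample titles of WT beginning B6. The strain label, B6.129-Ptprz1tm1Nmo, is on all samples, WT included, and no label gives an age, or tells if a pair of libraries stems from different mice or dishes. The spread behind the p-values below was estimated from all 12 libraries of the series, not from these 4 alone. It is only the spread between libraries of a group, which may therefore be technical.

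Ptprz1 encodes protein tyrosine phosphatase receptor type Z, a transmembrane phosphatase that binds pleiotrophin and midkine and is best known from neural and glial cells. It removes phosphate from tyrosines of partner proteins, and ligand binding lowers that activity. Macrophages grown in M-CSF depend on another tyrosine-phosphorylation system, the receptor kinase CSF1R, which signals through RAS and ERK and keeps marrow progenitors dividing. The series title places this comparison in the setting of kidney injury mediated by tubule cells and macrophages.

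Total counts were 19555600 and 18570930 in the KO libraries and 17833526 and 17505261 in the WT libraries, so that 3 counts, the most that a count of 0 allows, correspond to 0.138 to 0.148 CPM (counts scaled to a common library size with TMM factors). Ptprz1 (chromosome 6, 22875502 to 23052916, GRCm38) had 0 counts in all 4 libraries, WT included, and in 11 of the 12 libraries of the series. The RNA therefore does not check the genotype labels, and Ptprz1 RNA was not detected in WT control cells either. Xist, transcribed from the inactive X of female cells, was at 618 and 499 CPM in WT and 0 in KO, and the Y-linked Ddx3y at 87.0 and 94.5 CPM in KO and 0 in WT. Sex and genotype cannot be told apart in this comparison, and restricting it to autosomes does not remove that. The KO libraries also stood further from each other than the WT libraries did. Among autosomal genes with a mean of at least 10 CPM, 248 of 7944 (3.12%) differed by more than 2-fold between the KO libraries, against 33 of 8010 (0.412%) between the WT libraries. Mitochondrially encoded transcripts took 2.69% and 3.46% of the KO counts and 2.54% and 2.52% of the WT counts.

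Core macrophage genes were abundant in all 4 libraries. Lyz2, which encodes lysozyme, was at 11945 and 9273 CPM in KO and 9303 and 9591 CPM in WT, and Ctss, the lysosomal protease cathepsin S, at 2871 and 2921 against 2413 and 2656 CPM. Csf1r, the M-CSF receptor, was at 2166 and 1536 against 1891 and 1812 CPM, C1qb, a complement subunit, at 1581 and 1238 against 1136 and 1147 CPM, and Adgre1, which encodes F4/80, at 1757 and 1035 against 1372 and 1304 CPM. None of the 21 core macrophage genes passed the adjusted threshold. A higher KO value at an unadjusted p below 0.05 was found for 2, and for 3.45% of all autosomal genes tested. The 2 were Msr1, a scavenger receptor (361 and 408 against 272 and 276 CPM), and Fcgr1, a high-affinity Fc receptor, whose KO value came from KO library 1 alone (187 and 86.4 against 87.7 and 86.6 CPM). Markers of T, NK and mast cells were near the floor: T and NK cell genes summed to 0.788 to 2.05 CPM, with Cd3e, Cd3d, Nkg7, Ncr1 and Il2rb at 0 in all 4. Stromal genes were not, and are described below.

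Of 12889 autosomal genes, 5 passed an adjusted p below 0.05 in edgeR's quasi-likelihood test (0.0388%), and all 5 were lower in KO. At an unadjusted p below 0.05 there were 953 genes (7.39%), where 644 are the number expected if no gene differed, with 445 higher (3.45%) and 508 lower (3.94%) in KO. The KO libraries lay entirely above the WT libraries for 21.8% of genes and entirely below them for 22.3%. Log2 fold changes, given throughout as KO relative to WT with their standard error, had a median of 0.01 and were positive for 51.5% of genes. DESeq2 on the same counts called 53 genes (0.411%), 23 higher and 30 lower, and included all 5. The plot of p against fold change shows these genes and the 20 that follow them.

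**Figure D1:**
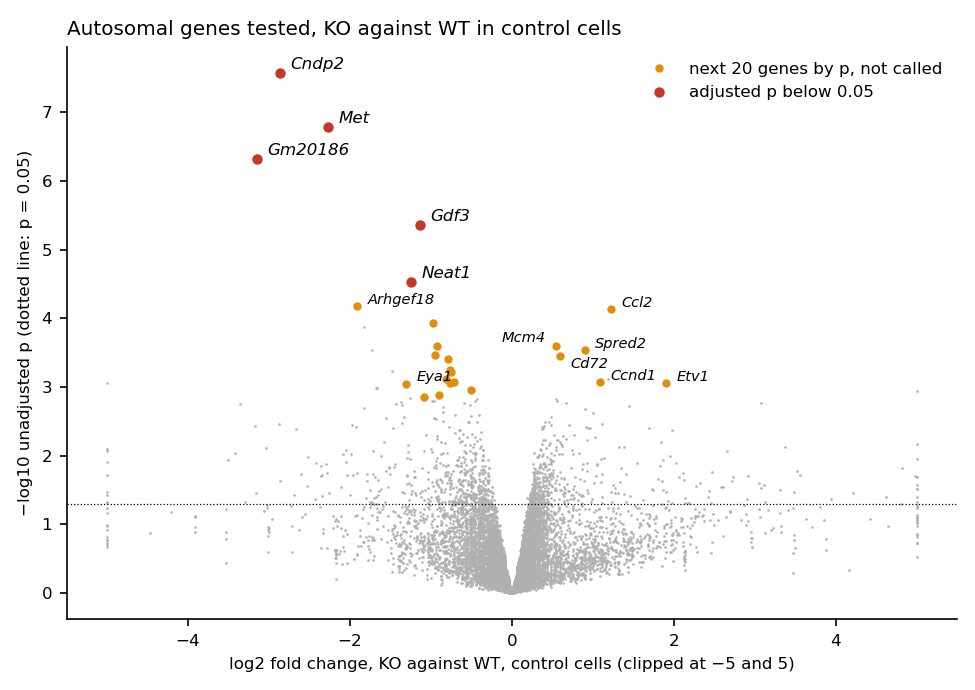
Each point is 1 of the 12889 autosomal genes tested, with the log2 fold change of KO against WT in control cells on the x axis and the −log10 unadjusted p on the y axis. The 5 genes with an adjusted p below 0.05 (red) all lie on the left, between −3.15 and −1.14, and the next 20 named genes (orange) lie on both sides.

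Cndp2 encodes a cytosolic dipeptidase that hydrolyses dipeptides such as cysteinylglycine, and it had the lowest p. Its level was 66.7 and 56.1 CPM in the KO libraries and 451 and 441 CPM in the WT libraries. The gap between the groups exceeded the gap within either (log2 fold change −2.86 ± 0.17, edgeR adjusted p = 9e-05). The groups were as far apart after LPS+IFNγ, at 141 and 163 against 1328 and 1320 CPM, and after IL-4, at 62.5 and 84.5 against 492 and 434 CPM. No other peptidase passed. Of 36 peptidases tested, 2 besides Cndp2 had an unadjusted p below 0.05, both with higher KO values: Cpd, a membrane carboxypeptidase (288 and 334 against 216 and 228 CPM), and Prep, prolyl endopeptidase (75.1 and 89.6 against 66.9 and 62.7 CPM). Over all genes 7.39% had such a p, and the median over the 36 was 0.06.

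Met encodes the receptor tyrosine kinase for hepatocyte growth factor. It lies 5.30 Mb from Ptprz1 on chromosome 6 (17463800 to 17573980). Its level was 2.16 and 2.49 CPM in KO and 11.3 and 11.2 CPM in WT (log2 fold change −2.27 ± 0.17, edgeR adjusted p = 3.71e-04). Fitted on the 4 control libraries alone, with fewer libraries to estimate the spread, it did not pass (0.179). After LPS+IFNγ it was much higher in both genotypes, at 83.2 and 93.6 CPM in KO and 179 and 155 CPM in WT. The KO value there was −0.92 on the log2 scale and missed the threshold (edgeR adjusted p = 0.0754). After IL-4 the levels were 4.37 and 5.4 against 22 and 18.3 CPM, and the difference passed (−2.04, edgeR adjusted p = 4.32e-04). Hgf, its ligand, named here after its values were seen, was at 13.8 and 13.9 CPM in KO and 16.2 and 18.3 CPM in WT. Of 29 genes of HGF and MET signalling, 1 passed the test, Met, and the only other with an unadjusted p below 0.05 was Plau, the urokinase that can activate HGF, at 134 and 239 against 121 and 112 CPM. The adaptor Shc1 was next, at 73.4 and 67.4 against 84.9 and 82.8 CPM. Over all genes 7.39% had an unadjusted p below 0.05, and the median over the 29 genes was 0.04.

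Gm20186 is an annotated lincRNA 4.03 Mb from Ptprz1 (chromosome 6, 18845910 to 18848207). It was at 2.30 and 1.32 CPM in KO and 16.9 and 15.4 CPM in WT (log2 fold change −3.15 ± 0.26, edgeR adjusted p = 8.17e-04), and on the 4 control libraries alone it did not pass (0.331). After LPS+IFNγ it reached 106 and 118 CPM in KO and 139 and 146 CPM in WT, a difference of −0.35 that did not pass (edgeR adjusted p = 0.672). After IL-4 it was at 3.66 and 2.23 against 16.2 and 19.1 CPM and passed (−2.59, edgeR adjusted p = 0.00291). For Met and Gm20186 the KO libraries thus lay below the WT libraries in each treatment, with the gap after LPS+IFNγ narrower. The test of that narrowing, the genotype by treatment interaction, did not pass over all genes (edgeR adjusted p = 0.562 for Met and 0.144 for Gm20186).

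No other gene near Ptprz1 passed. Within 20 Mb on either side 138 genes were tested, of which 71 had a positive and 67 a negative log2 fold change, with a median of 0.01. Both calls there were Met and Gm20186, and 3 further genes had an unadjusted p below 0.05, which 7.39% of all genes had. Of these, Tbxas1, thromboxane A synthase, was at 169 and 224 CPM in KO and 157 and 145 CPM in WT, and Akr1b8, an aldo-keto reductase, at 53.0 and 57.5 against 72.2 and 61.4 CPM. The other was Gm49041, at most 0.194 CPM in any library.

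**Figure D2:**
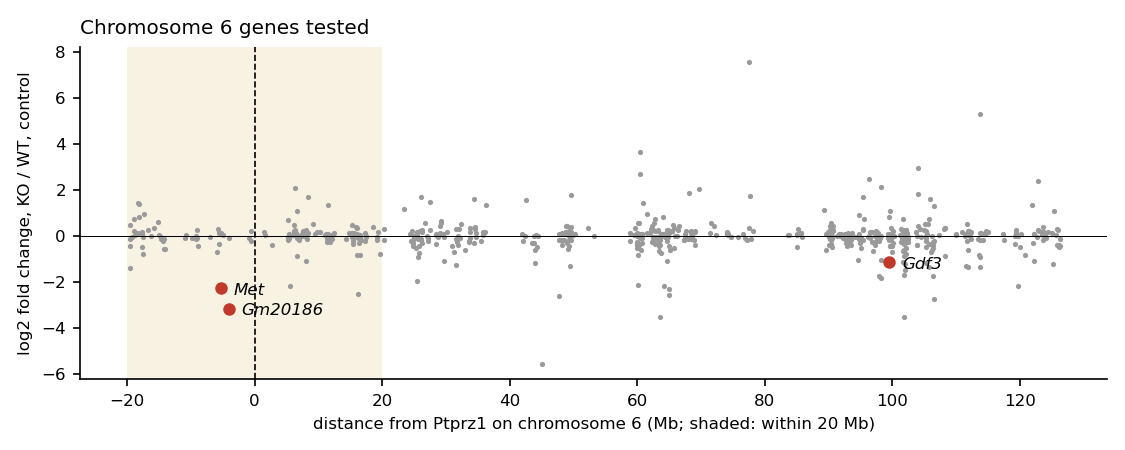
Each point is a tested gene of chromosome 6, placed by its distance from Ptprz1 in Mb (x axis), with its log2 fold change in control cells (y axis). Red points passed an adjusted p below 0.05: Met and Gm20186 lie within the shaded 20 Mb window, at −2.27 and −3.15, and Gdf3 (−1.14) lies far outside it.

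Gdf3 encodes a secreted ligand of the TGF-β family, related to NODAL and GDF1. It is also on chromosome 6, well outside that window (122605403 to 122610087). It was at 19.9 and 23.2 CPM in KO and 50.8 and 44.2 CPM in WT (log2 fold change −1.14 ± 0.12, edgeR adjusted p = 0.00661). After LPS+IFNγ its level was lower in both genotypes, at 3.17 and 3.19 CPM in KO and 9.26 and 9.22 CPM in WT, and the genotypes stayed apart (−1.54, edgeR adjusted p = 0.00323). After IL-4 it was at 18.1 and 17.0 against 40.3 and 38.3 CPM (−1.17, edgeR adjusted p = 0.00591). In control cells the call did not hold without KO library 1 (edgeR adjusted p = 0.0855) or WT library 1 (0.141), or on the 4 control libraries alone (0.425). Of 38 TGF-β family ligands, receptors and SMADs, Gdf3 alone passed, and the median was 0.12, with a range of −0.01 to 0.26 when 1 control library was left out. Gdf9, the other with an unadjusted p below 0.05, was at 0.0921 and 0.0487 CPM in KO and 0.535 and 0.197 CPM in WT, levels of a few counts. Over all genes 7.39% had such a p. The receptor Tgfbr2 was at 235 and 214 against 183 and 203 CPM, and Ltbp3, which holds latent TGF-β in the matrix, at 117 and 108 against 134 and 127 CPM. The target Id1 was apart only in KO library 2, at 0.737 and 9.46 against 0.875 and 1.33 CPM.

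Neat1 is the long noncoding RNA on which nuclear paraspeckles assemble. It was at 149 and 159 CPM in KO and 420 and 309 CPM in WT (log2 fold change −1.24 ± 0.17, edgeR adjusted p = 0.0403). The WT libraries were further apart from each other than the KO libraries, but the groups did not overlap. This call was the least stable of the 5: it was lost without KO library 1 (edgeR adjusted p = 0.127), KO library 2 (0.0665) or WT library 1 (0.348), and on the 4 control libraries alone (0.498). In the other treatments the groups were not called apart. After LPS+IFNγ Neat1 was at 97.4 and 110 CPM in KO and 106 and 133 CPM in WT (−0.21), and after IL-4 at 504 and 448 against 353 and 369 CPM (0.40), neither of which passed. The interaction of genotype with IL-4 did not pass either (edgeR adjusted p = 0.616).

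Most other paraspeckle components also had lower values in control cells. Of 17 tested, a count that includes Neat1, 14 had a negative log2 fold change, 5 of them with an unadjusted p below 0.05. The KO libraries lay below both WT libraries for 11. Over all genes 3.94% were lower at that p and 22.3% lay entirely below WT. The median was −0.17, and the 3 positive values, all of proteins, were at most 0.12. Taf15, an RNA binder of the FET family, was at 38.9 and 28.6 CPM in KO and 64.0 and 57.6 CPM in WT. Its relative Ewsr1 was at 109 and 80.1 against 145 and 134 CPM. Dazap1, another RNA binder, was at 30.3 and 22.7 against 41.6 and 36.8 CPM. Apart from Neat1 no component passed the adjusted threshold. The medians of the same 17 genes were −0.10 after LPS+IFNγ and 0.00 after IL-4.

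**Figure D3:**
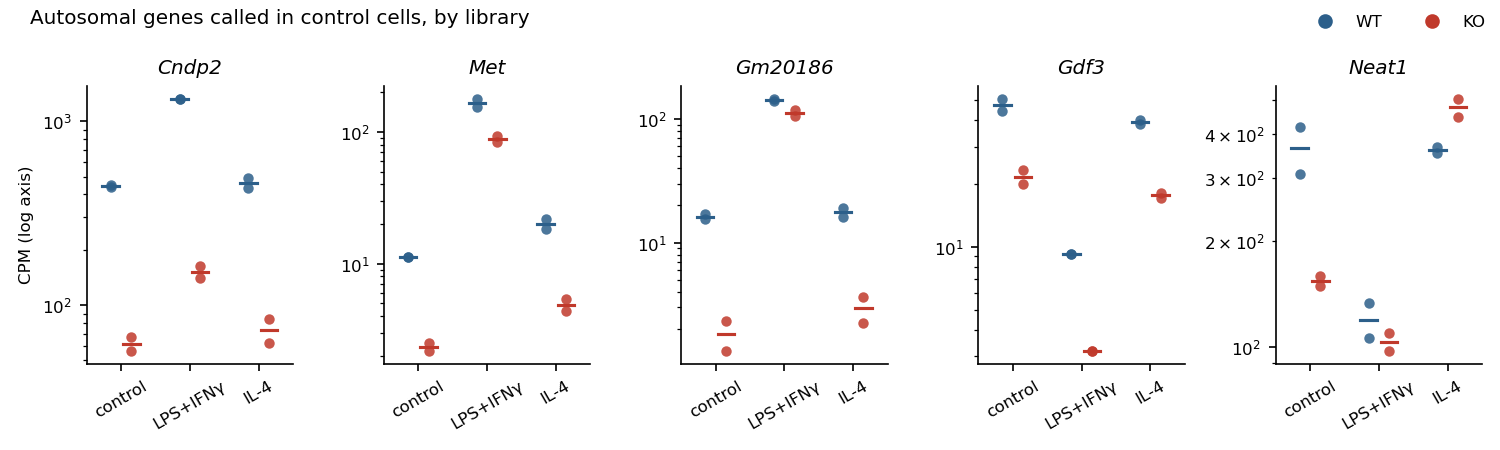
CPM (log axis, a separate scale for each gene) of the 5 called genes in all 12 libraries, by treatment; points are libraries and bars are means of 2 libraries. Cndp2 and Gdf3 are lower in KO under all 3 treatments, Met and Gm20186 lie nearer to WT after LPS+IFNγ, and Neat1 is lower in KO in control cells but not after IL-4.

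The 20 genes that followed by p among named protein-coding genes of at least 5 CPM had edgeR adjusted p from 0.0807 to 0.394, so none passed, while DESeq2 called all 20. The first was Arhgef18, a guanine nucleotide exchange factor, at 2.16 and 3.27 CPM in KO and 10.5 and 10.0 CPM in WT (log2 fold change −1.91 ± 0.28). Its value was alike in the other treatments, at −2.08 after LPS+IFNγ and −1.50 after IL-4. Eya1, a transcriptional coactivator with phosphatase activity, was at 7.83 and 6.63 against 18.2 and 17.6 CPM, and Btbd2, a BTB-domain member, at 13.5 and 12.6 against 25.7 and 24.9 CPM. Both again had values of the same sign in the other treatments (−1.86 and −1.18 for Eya1, −0.66 and −0.82 for Btbd2). Amz1, a metallopeptidase, was at 9.95 and 10.2 against 19.9 and 19.6 CPM, with −0.82 after LPS+IFNγ and 0.07 after IL-4.

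Of the others among the 20, Ccl2, the monocyte-attracting chemokine, was at 7.28 and 7.46 CPM in KO and 2.87 and 3.40 CPM in WT (log2 fold change 1.23 ± 0.18, edgeR adjusted p = 0.0819). Cd72, an inhibitory lectin-like receptor, was at 444 and 455 against 302 and 290 CPM, with the KO libraries close to each other. Lower in KO were Gadd45b, a stress-induced signalling protein (10.1 and 8.04 against 15.9 and 15.5 CPM), Pdcd4, a translation inhibitor (13.9 and 13.2 against 22.5 and 23.2 CPM), and Ring1, a Polycomb ubiquitin ligase (5.80 and 4.44 against 10.7 and 10.9 CPM). Rgl2, an exchange factor for Ral, was at 42.3 and 34.8 against 68.2 and 62.4 CPM, and Znrf1, a ubiquitin ligase, at 34.4 and 29.9 against 45.0 and 45.9 CPM. The remaining members, Fam193b, Iffo1, Als2cl and Gtpbp2, were lower in KO by 0.71 to 0.92 on the log2 scale.

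The 25 genes, called or next in order, kept their sign after LPS+IFNγ in 22 cases (88.0%) and after IL-4 in 14 (56.0%). Over all autosomal genes the same share was 61.3% and 56.4%, and over the 953 genes with an unadjusted p below 0.05 in control cells it was 78.5% and 56.5%. These treatments use other libraries than the control comparison, but the same genotypes. Xist and Ddx3y were each at 0 counts in 6 of the 12 libraries, and sex and genotype cannot be told apart in these treatments either. No label tells if treatments share mice. Of the 25, 2 passed the adjusted threshold after LPS+IFNγ (0.0233% of all genes did), Cndp2 and Gdf3, and 4 after IL-4 (0.031% of all genes), those and Met and Gm20186. At an unadjusted p below 0.05 the counts were 11 of the 25 after LPS+IFNγ, against 8.17% of all genes, and 8 after IL-4, against 3.31%. Neither interaction test called an autosomal gene, with 450 (3.49%) and 580 (4.5%) genes at an unadjusted p below 0.05 for LPS+IFNγ and IL-4 and 5 called for each by DESeq2. A difference between treatments in the effect of genotype was therefore not established for any gene in edgeR's test.

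**Figure D4:**
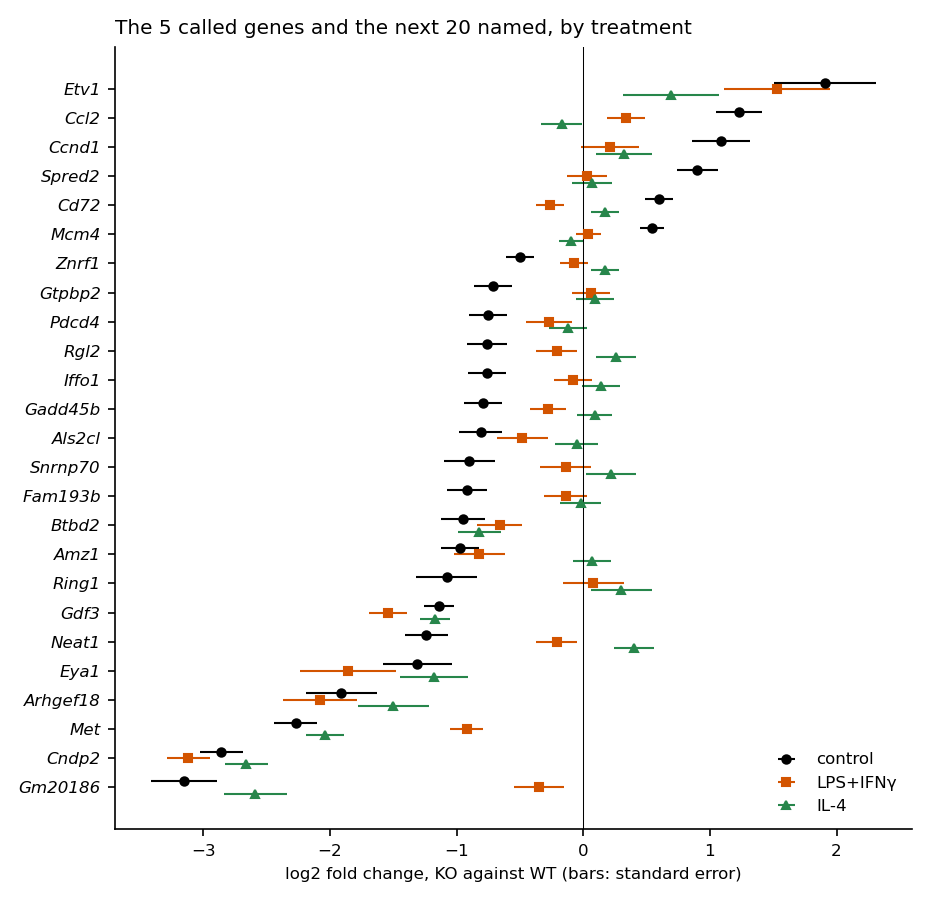
Log2 fold change of KO against WT (x axis; bars are standard errors) for the 5 called and the next 20 named genes, in control cells (circles), after LPS+IFNγ (squares) and after IL-4 (triangles). Cndp2, Met, Gm20186, Gdf3, Arhgef18, Eya1 and Btbd2 are among those on the left in all 3, while Spred2 and Mcm4 lie near 0 outside control cells. Ring1 and Snrnp70 lie near 0 after LPS+IFNγ and at 0.30 and 0.22 after IL-4. There only WT library 2 was below both KO libraries, with Ring1 at 10.1 and 11.7 CPM in KO against 10.9 and 6.87 in WT. Snrnp70 was at 117 and 128 against 128 and 82.5 CPM.

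ERK signalling induces its own brakes, among them Sprouty and SPRED proteins and dual-specificity phosphatases, along with ETS factors and cyclin D1. Some of these were among the 20 genes, and a list of such genes was then drawn up, so its counts describe genes partly chosen for their values. Spred2, which blocks activation of RAF, was at 31.4 and 44.5 CPM in KO and 20.9 and 19.7 CPM in WT (log2 fold change 0.90 ± 0.16). Ccnd1, cyclin D1, was at 198 and 312 against 119 and 121 CPM (1.09 ± 0.23), and the ETS factor Etv1 at 6.08 and 8.43 against 2.19 and 1.67 CPM (1.91 ± 0.40). In each of these KO library 2 was the higher. Both KO libraries were above both WT libraries, as for 8 of the 18 tested genes of the list and 21.8% of all genes. KO library 2 also had the highest sum of stromal markers (1865 CPM, against 698 in KO library 1 and 157 and 804 in WT), whose part in these values was not tested.

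Of 18 such genes tested, 14 had a positive log2 fold change, and none passed the adjusted threshold. An unadjusted p below 0.05 was found for 7 of the 14, where 3.45% of all genes were higher at that p. The other 4 of the 7 were Etv5 (84.1 and 132 against 52.8 and 55.2 CPM), the ERK phosphatase Dusp6 (44.2 and 61.4 against 27.9 and 27.1 CPM), Spred1 (196 and 219 against 167 and 169 CPM) and Spry2 (6.96 and 14.0 against 5.93 and 5.86 CPM). The median over the 18 was 0.72, and it was 0.20 without KO library 2 and 0.29 without WT library 1. It was 0.40 after LPS+IFNγ and 0.13 after IL-4. Of 18 tested ligands, partner receptors and substrates of PTPRZ none passed, and the median was 0.11 (0.24 without KO library 1). The 3 with an unadjusted p below 0.05 were Arhgap35, a GTPase-activating substrate (31.9 and 41.2 against 28.2 and 26.9 CPM), the integrin subunit Itgav (269 and 340 against 215 and 241 CPM) and Git1 (73.0 and 77.6 against 65.0 and 64.2 CPM). Both KO libraries were above both WT libraries for all 3, which were picked by p. That held for 5 of the 18 tested and for 21.8% of all genes.

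Cell cycle genes lay on both sides. The MCM proteins form the helicase that is loaded on DNA before replication. Mcm4 was at 117 and 113 CPM in KO and 82.2 and 75.6 CPM in WT (log2 fold change 0.54 ± 0.094), and Mcm6 at 270 and 278 against 190 and 184 CPM. Mcm3 was at 146 and 146 against 115 and 107 CPM, Mcm2 at 98.4 and 94.5 against 75.4 and 78.2 CPM, and the loading factor Cdt1 at 63.3 and 55.4 against 49.9 and 43.0 CPM. The KO libraries were close to each other for these genes, and above both WT libraries for all 8 members of the helicase and licensing list. Of the 8, 7 had an unadjusted p below 0.05, and the median was 0.39. It was 0.13 after LPS+IFNγ, with 6 positive, and −0.09 after IL-4, with 2 positive. In control cells 21.8% of all genes lay entirely above WT and 3.45% were higher at that p, but the 8 genes were set apart with their values known. None passed the adjusted threshold, and DESeq2 called 3.

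Mitotic genes lay the other way. All 15 tested had negative values, with a median of −0.61. Of these, 3 had an unadjusted p below 0.05, where 3.94% of all genes were lower at that p. The KO libraries lay below both WT libraries for 14, where that held for 22.3% of all genes. Birc5, survivin, was at 48.6 and 27.3 CPM in KO and 55.1 and 59.2 CPM in WT, the centromere histone Cenpa at 35.8 and 13.9 against 52.5 and 52.9 CPM, and cyclin B1 (Ccnb1) at 56.4 and 32.1 against 74.4 and 73.0 CPM. Mki67, the proliferation marker, was at 448 and 315 against 592 and 547 CPM. KO library 2 was the lower on average (mean log2 CPM of the 15 genes 6.21 and 5.30 in KO, 6.48 and 6.44 in WT). The median was −0.21 without KO library 2 and −1.06 without KO library 1. It was −0.03 after LPS+IFNγ and −0.62 after IL-4, where KO library 2 was again the lower (mean log2 CPM of the 15 genes 5.43 and 4.52 in KO, 5.65 and 5.69 in WT). After LPS+IFNγ these genes were barely expressed in either genotype, with library means between −0.28 and −0.06 on that scale. Birc5 and Ccnb1 were then at 0.194 to 0.409 CPM, where 3 counts correspond to 0.203 to 0.29 CPM. Mki67 was still at 7.7 to 13.4 CPM. The median after LPS+IFNγ therefore cannot tell if the difference was lost. Both of these short lists are parts of a 35-gene cell cycle list, divided after its values were seen. Over the whole list 16 genes were positive and 19 negative, with a median of −0.01.

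Most splicing factors had lower values in both KO libraries, none of them called. Snrnp70 encodes a protein of the U1 particle that recognises the start of introns, and it was at 74.5 and 59.7 CPM in KO and 135 and 116 CPM in WT (log2 fold change −0.90 ± 0.20). Safb2, a scaffold attachment factor, was at 40.1 and 29.3 against 77.3 and 70.7 CPM, and Rsrp1, an arginine and serine rich factor, at 130 and 89.5 against 221 and 200 CPM. Sfswap, a splicing regulator, was at 27.3 and 24.0 against 33.7 and 34.4 CPM, and cyclin L1 (Ccnl1) at 31.2 and 29.2 against 43.3 and 44.2 CPM. In a list of 35 splicing factors and CLK kinases, also drawn up after values were seen, 31 were negative, 14 with an unadjusted p below 0.05, and the KO libraries lay below both WT libraries for 26. Over all genes the shares lower at that p and entirely below WT were 3.94% and 22.3%. The median was −0.25, it stayed between −0.26 and −0.20 when any 1 control library was left out, and it was −0.04 after LPS+IFNγ and −0.09 after IL-4. None passed the adjusted threshold, and DESeq2 called 3.

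Long noncoding transcripts also had more lower than higher values. Of 225 autosomal lincRNAs tested, 22 were lower and 2 higher at an unadjusted p below 0.05, with a median of −0.27, and of 148 genes annotated as processed transcripts 14 were lower and 1 higher. Processed pseudogenes went the other way, with 8 of 319 higher and 2 lower and a median of 0.12. Among 11639 protein-coding genes the counts were 442 lower and 426 higher, with a median of 0.02. The share of mitochondrial transcripts was higher in both KO libraries than in WT, as given above, and its part in these values was not tested.

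Type I interferon-stimulated genes had high values in KO library 1 and not in KO library 2. All 43 tested had positive log2 fold changes, with a median of 1.05 and 26 at an unadjusted p below 0.05. Over all genes 3.45% were higher at that p. None of the 43 passed the adjusted threshold, and DESeq2 called 2. Oasl2, a relative of the oligoadenylate synthetases, was at 109 and 24.5 CPM in KO and 17.7 and 16.0 CPM in WT. Oas3, which makes the activator of RNase L, was at 133 and 23.3 against 20.9 and 19.6 CPM, and Ifit1, which binds foreign RNA ends, at 14.7 and 1.75 against 1.51 and 1.08 CPM. Ifi44 was at 5.53 and 0.634 against 0.243 and 0.345 CPM. Without KO library 1 the median was −0.01, and without KO library 2 it was 1.71. Ifi211, a nuclear DNA-binding protein of the interferon-inducible p200 family, was the member with the lowest p and was above WT in both KO libraries (61.7 and 27.4 against 15.7 and 16.9 CPM).

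Such genes are switched on through the interferon-stimulated response element, to which an interferon-activated complex that includes IRF9 binds. Its core, searched as GAAANNGAAA on both strands, overlapping matches included, was present in the promoter window (250 bases before to 50 after the start, RefSeq, GRCm38.p6) of 18 of the 31 list members that could be matched (58.1%), and of 1079 of all 27025 genes (3.99%), or 3.44% of 32851 windows. A match is a description of these letters and does not show a bound site. Stretches of 150 bases that end at the base before the start are shown for members high in KO library 1 alone, with the core in capitals, and read along the gene's strand. In Ifit1 and Rsad2 the core lies on the other strand, so its complement is capitalised.
Isg15 (chr4:156200819-156200968, minus strand): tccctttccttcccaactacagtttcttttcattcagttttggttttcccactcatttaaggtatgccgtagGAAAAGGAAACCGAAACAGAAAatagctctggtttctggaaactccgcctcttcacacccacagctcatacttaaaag
Ifit1 (chr19:34640739-34640888, plus strand): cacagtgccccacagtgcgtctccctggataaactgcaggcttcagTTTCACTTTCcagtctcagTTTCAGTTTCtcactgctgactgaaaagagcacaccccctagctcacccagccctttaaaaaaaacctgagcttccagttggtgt
Oas1a (chr5:120907526-120907675, minus strand): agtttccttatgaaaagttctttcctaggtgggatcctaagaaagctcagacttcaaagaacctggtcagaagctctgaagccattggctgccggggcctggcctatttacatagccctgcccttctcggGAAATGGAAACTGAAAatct
Rsad2 (chr12:26456453-26456602, minus strand): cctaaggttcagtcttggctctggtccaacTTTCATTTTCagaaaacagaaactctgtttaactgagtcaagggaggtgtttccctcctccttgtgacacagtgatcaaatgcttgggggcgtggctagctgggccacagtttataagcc
Of these genes, Isg15, which encodes a ubiquitin-like modifier, was at 13.9 and 2.49 CPM in KO and 1.94 and 2.76 CPM in WT. Oas1a was at 82.8 and 30.4 against 24.8 and 30.4 CPM, and Rsad2, which encodes viperin, at 24.8 and 3.56 against 4.52 and 3.35 CPM. KO library 2 lay at or near the WT level in each.

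GTPases induced by IFNγ had the same split between the KO libraries. Of 16 tested, 13 were positive, 4 with an unadjusted p below 0.05 (3.45% of all genes were higher at that p), and none passed. Tgtp2 was at 4.70 and 1.02 CPM in KO and 0.680 and 0.887 CPM in WT, Ifi47 at 25.8 and 9.21 against 9.28 and 9.11 CPM, Irgm1 at 62.1 and 33.2 against 30.4 and 30.7 CPM, and Gbp9 at 10.6 and 5.56 against 4.76 and 4.73 CPM. Each is a defence GTPase, and each was clearly above WT in KO library 1 alone. After stimulation the type I list had medians of 0.10 with LPS+IFNγ and −0.37 with IL-4.

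MHC class II genes, which present antigen to helper T cells, had low values mainly in KO library 2. Of 10 tested, 8 were negative, none with an unadjusted p below 0.05, and the median was −0.70. Ciita, their master regulator, was at 3.96 and 0.487 CPM in KO and 8.31 and 5.42 CPM in WT. H2-Ab1 was at 17.0 and 2.49 against 19.0 and 17.8 CPM, H2-Aa at 22.9 and 2.00 against 25.4 and 23.5 CPM, and the invariant chain Cd74 at 143 and 40.5 against 146 and 144 CPM. H2-DMa, which loads peptide, was at 17.1 and 8.58 against 17.9 and 16.4 CPM. KO library 1 matched WT for most of these, and without KO library 2 the median was −0.06. After IL-4 the second KO library was again the lower (mean log2 CPM over the list 3.20 and 1.41 in KO, 3.25 and 3.33 in WT).

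**Figure D5:**
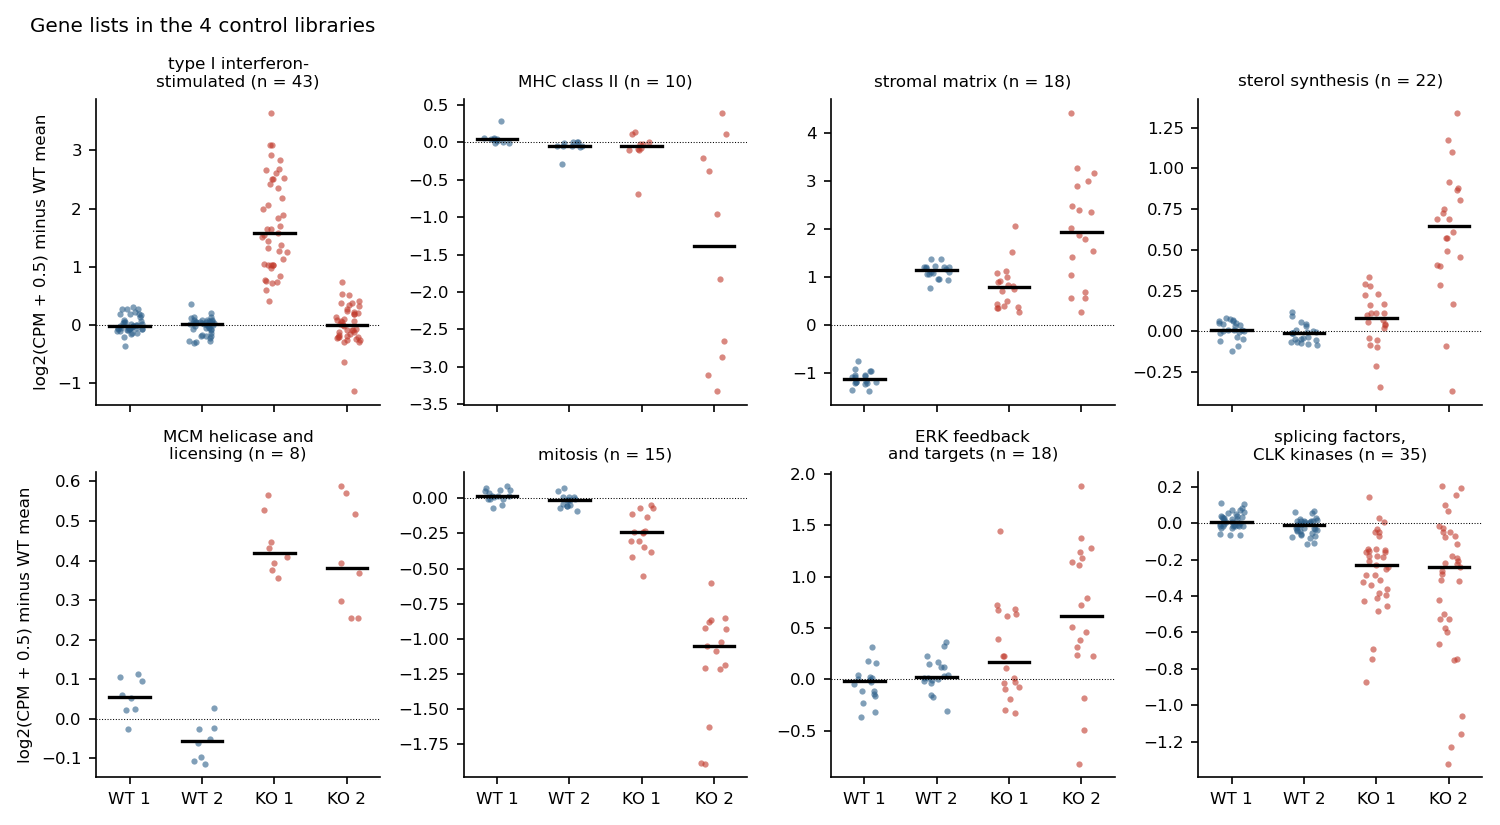
Members of 8 gene lists in the 4 control libraries, as log2(CPM + 0.5) minus the mean of the WT libraries (y axis, a separate scale for each panel); points are genes and bars are medians over a list. Interferon-stimulated genes are high in KO library 1, and most class II genes are low in KO library 2. Most genes of the helicase, mitosis and splicing lists lie on the same side of WT in both KO libraries.

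Stromal genes were the marker list of another cell type with the widest spread. Summed over 22 markers they reached 698 and 1865 CPM in KO and 157 and 804 CPM in WT, so that KO library 1 lay below WT library 2. Of 18 tested, 17 were positive, 2 with an unadjusted p below 0.05 (3.45% of all genes were higher at that p). None passed, and the median was 1.11, with 0.38 when WT library 1 was left out and 2.94 when WT library 2 was. Col1a1, a chain of collagen I, was at 151 and 416 CPM in KO and 22 and 123 CPM in WT, and fibronectin (Fn1) at 51.4 and 263 against 14.7 and 56.7 CPM. Acta2, smooth muscle actin, was at 36.7 and 169 against 7.10 and 40.1 CPM, Sparc, a matrix glycoprotein, at 62.9 and 175 against 14.4 and 67.1 CPM, and Postn, periostin, at 8.84 and 47.5 against 0.583 and 4.19 CPM. WT library 1 was lowest and KO library 2 highest for all 5. KO library 1 was above WT library 2 for Col1a1 and Postn and below it for the other genes named. After LPS+IFNγ and IL-4 the medians were 1.39 and 1.56, with 18 of 18 positive in both. Averaged over the 18 genes, log2 CPM in control cells was 4.39 and 5.59 in the KO libraries against 2.33 and 4.72 in the WT libraries. It was 4.09 and 5.19 against 2.05 and 3.75 after LPS+IFNγ, and 4.65 and 5.94 against 2.33 and 4.4 after IL-4. On that scale KO library 1 lay above WT library 2 in both stimulated sets but not in control cells. In such bulk RNA, more stromal cells and more RNA per stromal cell cannot be told apart.

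Matrix proteases and their inhibitors can come from macrophages and from stromal cells. Timp3, a matrix-bound inhibitor, was at 4.84 and 11.0 CPM in KO and 1.12 and 2.36 CPM in WT. Adam8, a myeloid sheddase, was at 1354 and 1848 against 1068 and 1036 CPM, and Adam15 at 352 and 312 against 271 and 258 CPM. Of 16 tested, 13 were positive, 4 with an unadjusted p below 0.05 (those and Plau), where 3.45% of all genes were higher at that p. None passed, and the median was 0.56, with 0.82 when KO library 1 was left out and 0.32 when KO library 2 was. The part of the stromal content in these values was not tested.

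Lipid synthesis genes were higher mainly in KO library 2, the library with the highest stromal sum. Of 22 sterol synthesis genes, 21 were positive, 7 with an unadjusted p below 0.05 (3.45% of all genes were higher at that p). None passed, and the median was 0.40, with 0.12 when KO library 2 was left out. That median was 0.04 after LPS+IFNγ and 0.17 after IL-4. Srebf2, which encodes a sterol-regulated transcription factor, was at 178 and 209 CPM in KO and 164 and 153 CPM in WT. Among the enzymes, Acat2 was at 20.5 and 23 against 17.1 and 16.2 CPM, Dhcr7 at 30.4 and 40.5 against 24.9 and 25.0 CPM, and squalene synthase (Fdft1) at 22.1 and 32.0 against 18.9 and 18.7 CPM. These 4 were above WT in both KO libraries, as were 13 of the 22 tested and 21.8% of all genes. All 13 genes of fatty acid synthesis were positive too, with a median of 0.27 (0.53 without KO library 1 and 0.13 without KO library 2), 2 at an unadjusted p below 0.05 and none passing. Acaca, acetyl-CoA carboxylase, was at 59.5 and 68.8 against 44.1 and 49.1 CPM, and Fasn, fatty acid synthase, at 95.0 and 150 against 88.5 and 81.7 CPM.

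The sterol regulatory element, searched as TCACNCCAC on both strands, was found in the window of 1 of 15 matched sterol genes and of 1.44% of all genes (1.24% of windows). That gene was Hmgcs1, which makes the precursor of mevalonate and was at 78.2 and 127 CPM in KO and 85.6 and 80.4 CPM in WT. Its stretch of 150 bases is shown in the same way, with the element in capitals.
Hmgcs1 (chr13:119690201-119690350, plus strand): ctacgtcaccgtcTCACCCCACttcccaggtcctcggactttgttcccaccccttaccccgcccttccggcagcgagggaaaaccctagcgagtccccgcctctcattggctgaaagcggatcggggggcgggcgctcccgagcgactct

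Most genes of glycolysis and of the ER had slightly higher KO values, with none called. Of 18 glycolysis genes 16 were positive and 4 were higher at an unadjusted p below 0.05, as were 3.45% of all genes. Their median was 0.24 and none passed. Slc2a1, the glucose transporter GLUT1, was at 41.1 and 78.9 CPM in KO and 34.5 and 35.4 CPM in WT, Ldha, lactate dehydrogenase, at 484 and 544 against 398 and 401 CPM, and the kinases Hk2 and Pfkp at 47.0 and 54.2 against 40.4 and 39.9 CPM and at 92.7 and 109 against 86.1 and 80.8 CPM. After LPS+IFNγ and IL-4 the glycolysis medians were −0.06 and 0.08. Of 24 ER stress genes and ATF4 targets, 20 were positive, 3 with an unadjusted p below 0.05 (3.45% of all genes were higher at that p). None passed, and the median was 0.20, with 0.32 after LPS+IFNγ and −0.03 after IL-4. The ER chaperone Calr was at 799 and 881 against 584 and 618 CPM, the ER co-chaperone Dnajb11 at 107 and 115 against 93.4 and 97.3 CPM, and Shmt2, which feeds the mitochondrial folate cycle, at 45.1 and 52.2 against 37.6 and 38.8 CPM.

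Lists of other macrophage functions held no call. At an unadjusted p below 0.05, which 7.39% of all genes had, there were 2 of 18 chemokines, 3 of 16 complement genes, 2 of 23 lysosomal genes, 2 of 17 immediate early genes and 6 of 23 M2 markers. Besides Ccl2, the chemokine Ccl4 was at 22.5 and 13.5 CPM in KO and 11.1 and 7.83 CPM in WT. The complement receptors C5ar1 and C3ar1 were at 803 and 993 against 692 and 669 CPM and at 1244 and 1217 against 955 and 962 CPM, and the complement regulator Cd46, of a few counts, was lower, at 0.0461 and 0.0975 against 0.292 and 0.493 CPM. Lysosomal cathepsin D (Ctsd) was at 11696 and 13685 against 9540 and 9458 CPM, while Tfeb, which drives lysosomal genes, was at 38.9 and 27.7 against 52.1 and 44.4 CPM. Among immediate early genes, Fos was at 67.0 and 90.7 against 56.2 and 51.7 CPM and Junb at 34.5 and 22.5 against 47.7 and 51.5 CPM. No marker of the M1 state had an unadjusted p below 0.05 among 17 tested. Of these 13 were positive and 2 negative, and their log2 CPM averaged 0.93 in KO library 1, −0.68 in KO library 2, −0.32 in WT library 1 and −0.16 in WT library 2, so that only KO library 1 lay above WT, as for the interferon-stimulated genes. Of 23 M2 markers 4 were higher and 2 lower at that level, Fn1 among the higher, which is also a stromal marker. Examples were Tgm2, a transglutaminase, at 70.6 and 98.1 against 55.6 and 62.7 CPM, and Matk, a kinase that restrains SRC family members, at 14.8 and 16.0 against 22.7 and 19.7 CPM. None of the genes in this paragraph passed the adjusted threshold.

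The remaining lists gave no call. Of 18 other tyrosine phosphatases of macrophages, relatives of PTPRZ, 12 were positive, and the median was 0.13. None had an unadjusted p below 0.05, which 7.39% of all genes had. Of 18 genes of MHC class I presentation, 12 were positive and again none had an unadjusted p below 0.05, with a median of 0.17 that was −0.28 without KO library 1 and 0.47 without KO library 2. Of 23 NRF2 targets and antioxidant genes 1 had such a p, lower in KO, with a median of 0.02. Genes of lipid uptake and efflux had 2 of 17 at that level, both higher, with a median of 0.09, and heat shock genes 2 higher and 1 lower of 12. B cell markers summed to 30.4 and 32.8 CPM in KO and 60.7 and 62.3 CPM in WT, and dendritic cell markers to 103 and 213 against 172 and 169 CPM. Granulocyte markers summed to 46.3 and 24.6 against 35.5 and 47.8 CPM.

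Some genes differed widely between the KO libraries. Saa3, an acute-phase apolipoprotein, was at 69.8 CPM in KO library 1 and 1.56 CPM in KO library 2, with 5.20 and 3.35 CPM in WT. The scavenger receptor Marco was at 27.0 and 2.49 CPM, Ly6e, an interferon-inducible surface protein, at 256 and 22.7 CPM, and Ms4a4a at 25.3 and 2.78 CPM, with WT at 7.63 and 5.27, 59.9 and 52.7, and 15.3 and 20.4 CPM. Ifit3 and Rtp4, both interferon-inducible, were at 36.5 and 2.10 CPM and at 67.8 and 7.99 CPM, with WT at 1.80 and 3.30 and at 8.17 and 9.95 CPM. Ednrb, the endothelin B receptor, was low in KO library 2 alone, at 26.3 and 1.95 CPM with WT at 19.0 and 20.8 CPM. In the other direction Fat3, an atypical cadherin, was at 1.98 and 36.7 CPM and Eef1a2, a translation factor of muscle and neurons, at 1.43 and 20.4 CPM, with WT at 3.74 and 3.79 and at 2.28 and 2.12 CPM. With H2-Aa, given above, these were the 10 protein-coding genes with the largest gap, and none of them passed the test of KO against WT.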

How the data were processed

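RNA sequencing of the 4 control libraries was analysed within the fit of all 12 libraries of the series, since with 2 libraries a group the spread is better estimated from 6 groups. The authors deposited 1 table of estimated counts per gene. The tools named in the submitters' processing notes, without roles, are FastQC 0.11.9, Salmon 1.10.2, DESeq2 1.45.3 and R 4.4.1, and the build named is GRCm39. The deposited estimated counts held only whole numbers and were not rounded further. Neither the annotation nor strand-specific counting is stated in the labels or notes, so genes that overlap, lie antisense or have near-identical copies have uncertain counts. Of the identifiers, 51425 (92.0%) matched a gene of GENCODE M21, whose GRCm38 coordinates are printed and were not converted.

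In R 4.3.3 with edgeR 4.0.16, filterByExpr left 13525 genes (12889 autosomal), libraries were scaled with TMM, and a quasi-likelihood model took 1 mean for each of the 6 groups (6 residual and 3.36 prior degrees of freedom). Tests were two-sided F tests, with Benjamini-Hochberg adjustment over all 13525 genes and a threshold of 0.05. CPM uses TMM-scaled library sizes, and standard errors were taken from the F statistics. Intervals implied by 3 counts cover counting error only. DESeq2 1.42.0, other scaling, filtering, sample sets, a library-number block and leaving out each control library were the alternatives.

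The members and gene lists were chosen with earlier results of these data known. Of the lists, 36 were written from general knowledge and 4 (ERK feedback, splicing, helicase, mitosis) were added after values were seen. Genes named were all those called, the next 20 protein-coding genes by p with at least 5 CPM in a group, up to 5 members of a list by p (macrophage genes by level), and the 10 with the largest gap between KO libraries at 10 CPM or more. Members of the 4 added lists, and Hgf, Isg15, Oas1a, Rsad2 and Hmgcs1, were named after values were seen. Lists are described by counts and medians, with no set test. Library numbers were not taken as pairs. KO and WT libraries each differed by more than sampling noise in a chi-square comparison (48.4 and 7.10 per gene), so none was treated as a copy of another, though separate preparations of 1 RNA sample would differ too. Some list members are counted but not reported here by name.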

Additional observations from a re-analysis of the deposited data

How the results depend on the processing

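Against 5 autosomal calls (0 higher and 5 lower), DESeq2 called 53 (23 and 30), edgeR without the filter on low counts 91 (52 and 39), edgeR on the control libraries alone 1 (0 and 1), and edgeR with the library number as a replicate block 22 (16 and 6). DESeq2's size factors and a fit of autosomal genes alone each gave 4. Leaving out 1 control library gave 3 to 44 calls, 0 to 39 of them higher and 3 to 5 lower, with 44 without KO library 2 and 3 without WT library 1. For the interaction, where 0 genes were called, DESeq2 called 5 for LPS+IFNγ and 5 for IL-4, the unfiltered fit 7 and 22, and leaving out a library gave 0 to 11 and 0 to 12. The causes of these shifts were not tested. All 5 calls held under DESeq2, without the filter and with the block; Cndp2 alone held on the control libraries alone. Neat1 was lost with DESeq2's size factors (adjusted p = 0.0511) and among autosomal genes alone (0.0814).

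Of 124 named genes, 57 kept their sign and their side of the threshold under every alternative in which they were tested. On the control libraries alone Gdf9, Gm49041, Cd46 and the mast cell markers were not tested, and the interaction has no value. Csf1r, at −0.00 on the log2 scale, was 0.01 with DESeq2, with its size factors and among autosomal genes alone, and 0.00 without the filter. Genes whose sign turned when a control library was left out had these ranges: Ifit3 −0.28 to 3.87, Rtp4 −0.18 to 2.93, Saa3 −1.45 to 4.06, Fat3 −0.89 to 3.28, Eef1a2 −0.59 to 3.21, Ly6e −1.31 to 2.22, Marco −1.37 to 2.10, Ednrb −3.34 to 0.43, Ms4a4a −2.68 to 0.54, Rsad2 −0.15 to 2.68, Fcgr1 −0.01 to 1.13, Id1 −0.54 to 3.09, Hmgcs1 −0.05 to 0.62, H2-DMa −1.0 to 0.03, Cd74 −1.84 to 0.02, Lyz2 −0.03 to 0.37, Adgre1 −0.37 to 0.42 and Csf1r −0.27 to 0.26. In each the sign turned on leaving out KO library 1 or KO library 2 (for Csf1r also WT library 1), and none of these genes was called with all libraries.

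No source pairs the library numbers. Deviations of same-numbered libraries correlated above 0.1 for 14 of 15 pairs of groups (0.208 for the control groups, lowest 0.0464), and the block moved the count of calls as given. With 2 libraries a side, depth limits genes of a few CPM, and a gene near 3 counts (0.138 to 0.148 CPM) gives no usable ratio.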
